A study of Mus musculus with 44 samples.

Results

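The genes described here are 10 transcripts that mark the mature, migratory state of dendritic cells (DCs), namely Ccr7, Fscn1, Lamp3, Cd200, Socs2, Il4i1, Aldh1a2, Ido1, Fas and Samsn1. They were chosen by symbol, and all 10 were found among the 14699 genes of the deposited table and passed the filter on low values that left 11963 genes to test. The cells were CD45+CD11c+MHCII high cells sorted from the draining inguinal lymph nodes of female mice between 8 and 12 weeks of age, 24 h after a subcutaneous injection at zeitgeber time (ZT, hours after light onset) 3, 9, 15 or 21. The 44 libraries formed 3 groups. WT libraries came from control mice given B16-F10-OVA cells, a melanoma line that expresses ovalbumin (20 libraries, 5 per timepoint). Libraries labelled KO came from Clec9a-cre:Bmal1 flox mice given the same cells (12 libraries, 3 per timepoint), and PBS libraries from control mice given a sham injection of PBS (12 libraries, 3 per timepoint). Clec9a-cre acts in conventional DCs and their precursors, so that Bmal1, the clock gene listed as Arntl, is targeted in these cells. Every copy of Bmal1 was floxed in this line, and cre was carried in heterozygous form.

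DCs in tissues take up antigen, mature and then move through lymphatic vessels to the draining lymph node, where they present antigen to T cells. Maturation switches on one shared set of transcripts in different DC types: a chemokine receptor that senses lymph node chemokines, an actin-bundling protein for dendrites and movement, co-stimulatory proteins, and a number of proteins that restrain signalling or T cells. High surface MHCII is the feature by which migratory DCs are separated from the DCs that reside in the node.

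The targeted gene did not check the KO label: the level of Arntl, a total over the whole gene, ran from 11.5 to 38.0 CPM (reads on the gene, scaled to the library's total) in libraries labelled KO, from 8.67 to 24.4 CPM in WT and from 12.3 to 34.8 CPM in PBS libraries, and its log2 difference of labelled KO from WT was 0.38 (standard error (SE) 0.12, adjusted p = 0.0153). The label is therefore used as a name throughout. Depth moved with the groups, with 20088012 to 28962671 reads on genes in WT libraries, 29406729 to 55799163 in those labelled KO and 28003328 to 49590055 in PBS libraries. Correlations across genes between libraries of 1 group and timepoint ran from 0.958 to 0.984 in WT, from 0.924 to 0.968 in labelled KO and from 0.960 to 0.971 in PBS, and no libraries held identical values. In bulk samples such as these, fewer cells of a type and less RNA per cell cannot be told apart. The 8 DC markers summed to a median of 18381 CPM in WT, 19143 CPM in labelled KO and 22705 CPM in PBS libraries. The melanoma markers Dct and Mlana were at 0 in 39 of 44 libraries and Tyrp1 in 40, whereas Tyr was at 0 in 19 and Pmel in none (median 1.13 CPM). Some libraries stood apart in their marker sums. ZT15 replicate 2 labelled KO had melanoma markers summing to 14.3 CPM and macrophage and monocyte markers summing to 1042 CPM, against medians of 1.31 and 252 CPM in its group. It was lowest of its timepoint in 5 of the 10 members and highest in 1. Among PBS libraries, ZT15 replicate 2 had the highest summed NK cell (336 CPM) and T cell markers (1473 CPM) and the lowest level of its timepoint in 8 of the 10 members. ZT21 replicate 3 labelled KO had T cell markers summing to 1402 CPM, against a median of 784 CPM in its group, and was lowest in 6 of 10 members, and WT ZT3 replicate 3 had DC markers summing to 28121 CPM and was lowest in 5 of 10. Without each of these libraries in turn, the count of members called below was 3 for labelled KO against WT (4 without WT ZT3 replicate 3), 3 for WT against PBS and 0 among WT timepoints. With all libraries, the shares of all genes called were 33.7%, 37.9% and 5.28%, in the same order. Without WT ZT3 replicate 3 the share was 33.6% for labelled KO against WT and 11% among WT timepoints. Low ranks also occurred without high marker sums. ZT9 replicate 2 labelled KO was lowest in 7 of 10 members. Its T cell markers (653 CPM) and macrophage and monocyte markers (178 CPM) summed to less than the medians of its group.

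Promoter sequence is shown for the 5 members whose level differed between groups below, and for Fas, the single member whose promoter in the table held the letters CACGTG. RefSeq promoters (GRCm38.p6, the same assembly as mm10, from 250 bases before to 50 bases after the start site) were matched by symbol for 7 of the 10 members. Capitals mark CANNTG, the general E-box, of which the CACGTG bound by CLOCK and BMAL1 is a form.
Samsn1: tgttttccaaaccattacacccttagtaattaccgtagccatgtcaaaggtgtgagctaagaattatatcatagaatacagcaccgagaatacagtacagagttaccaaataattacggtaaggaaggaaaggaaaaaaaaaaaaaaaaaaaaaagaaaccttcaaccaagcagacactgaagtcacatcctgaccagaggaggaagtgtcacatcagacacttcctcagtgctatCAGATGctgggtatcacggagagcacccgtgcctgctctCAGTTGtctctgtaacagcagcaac
Cd200: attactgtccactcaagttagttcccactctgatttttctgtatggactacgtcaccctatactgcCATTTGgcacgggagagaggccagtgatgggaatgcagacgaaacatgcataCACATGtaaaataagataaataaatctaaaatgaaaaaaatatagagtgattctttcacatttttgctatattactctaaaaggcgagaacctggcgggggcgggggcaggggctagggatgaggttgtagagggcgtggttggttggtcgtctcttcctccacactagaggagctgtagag
Aldh1a2: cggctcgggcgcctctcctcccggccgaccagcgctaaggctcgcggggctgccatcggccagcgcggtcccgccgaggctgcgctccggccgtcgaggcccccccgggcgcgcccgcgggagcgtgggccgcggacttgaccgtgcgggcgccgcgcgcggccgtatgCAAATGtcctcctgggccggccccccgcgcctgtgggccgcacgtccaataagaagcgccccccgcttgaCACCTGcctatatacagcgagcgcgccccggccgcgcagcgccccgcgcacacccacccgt
Fscn1: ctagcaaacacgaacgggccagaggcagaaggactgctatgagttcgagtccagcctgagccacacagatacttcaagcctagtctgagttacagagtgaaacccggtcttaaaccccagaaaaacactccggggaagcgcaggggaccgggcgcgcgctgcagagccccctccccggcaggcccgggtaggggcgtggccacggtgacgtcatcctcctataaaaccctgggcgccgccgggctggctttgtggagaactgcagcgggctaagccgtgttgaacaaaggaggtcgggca
Il4i1: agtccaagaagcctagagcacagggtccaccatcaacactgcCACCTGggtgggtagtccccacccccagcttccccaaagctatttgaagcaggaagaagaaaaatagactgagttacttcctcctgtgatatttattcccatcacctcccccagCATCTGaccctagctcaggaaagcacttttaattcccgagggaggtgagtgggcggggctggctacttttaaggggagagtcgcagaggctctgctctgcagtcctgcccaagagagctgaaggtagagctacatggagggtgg
Fas: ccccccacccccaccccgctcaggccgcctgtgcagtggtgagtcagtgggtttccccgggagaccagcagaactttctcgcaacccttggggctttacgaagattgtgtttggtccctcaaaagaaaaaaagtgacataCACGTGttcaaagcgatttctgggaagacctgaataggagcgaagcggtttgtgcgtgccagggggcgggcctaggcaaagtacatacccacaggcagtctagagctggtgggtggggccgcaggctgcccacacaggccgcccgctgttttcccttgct
The windows lie at chr16:75909217-75909516, - strand (Samsn1), chr16:45409004-45409303, - strand (Cd200), chr9:71215539-71215838, + strand (Aldh1a2), chr5:142960105-142960404, + strand (Fscn1), chr7:44836038-44836337, + strand (Il4i1) and chr19:34290409-34290708, + strand (Fas), and each contains the start of its gene. CANNTG was found at positions -14 and 26 from the start site in Samsn1, at -184 and -132 in Cd200, at -81 and -11 in Aldh1a2, at -208 and -94 in Il4i1 and at -110 in Fas, where it read CACGTG. Neither Fscn1 nor Lamp3 held it. Of the 32851 promoters of this length in the table, 72.3% held CANNTG and 7.15% held CACGTG on either strand. TTCNNNGAA, a STAT motif, was found at -181 in Lamp3 and at -93 in Fas, against 8.30% of all promoters. AGGTCA, the core bound by ROR and REV-ERB (16.3% of promoters), was found in none of the 7. These are matches of letters in 1 window only.

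The members differed in level by several orders of magnitude. Expressed per kilobase of merged exons, so that genes can be compared, the mean WT level was highest for Ccr7, the receptor that guides DCs towards the lymph node (2662 CPM per kb), then for Fscn1, the actin-bundling protein fascin (1790 CPM per kb). Il4i1, an amino acid oxidase that restrains T cells, followed with 431 CPM per kb, Samsn1, an adaptor that dampens immune-receptor signalling, with 311 CPM per kb, and Socs2, an inhibitor of cytokine signalling, with 112 CPM per kb. Fas, a death receptor, had 83.1 CPM per kb, Aldh1a2, the retinaldehyde dehydrogenase that makes retinoic acid, 60.4 CPM per kb, and Cd200, a surface ligand that inhibits myeloid cells, 26.4 CPM per kb. Ido1, which degrades tryptophan, had 1.89 CPM per kb and Lamp3, a lysosomal membrane protein of mature DCs, 0.334 CPM per kb. The reads behind a value also differed widely, from 88527 to 310671 reads per library for Ccr7 but from 16 to 333 for Ido1. Values of Il4i1 were fractions of a read in all 44 libraries. In the GENCODE annotation, where some Il4i1 transcripts start inside Nup62, its exons overlap those of Nup62 on the same strand and of Atf5 and Tbc1d17 on the other; in RefSeq Il4i1 begins after the end of Nup62. Its level is uncertain to the extent that reads were divided between them. Lamp3 was a whole number of reads, within 0.02 of a read, in 6 of 44 libraries.

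**Figure D1:**
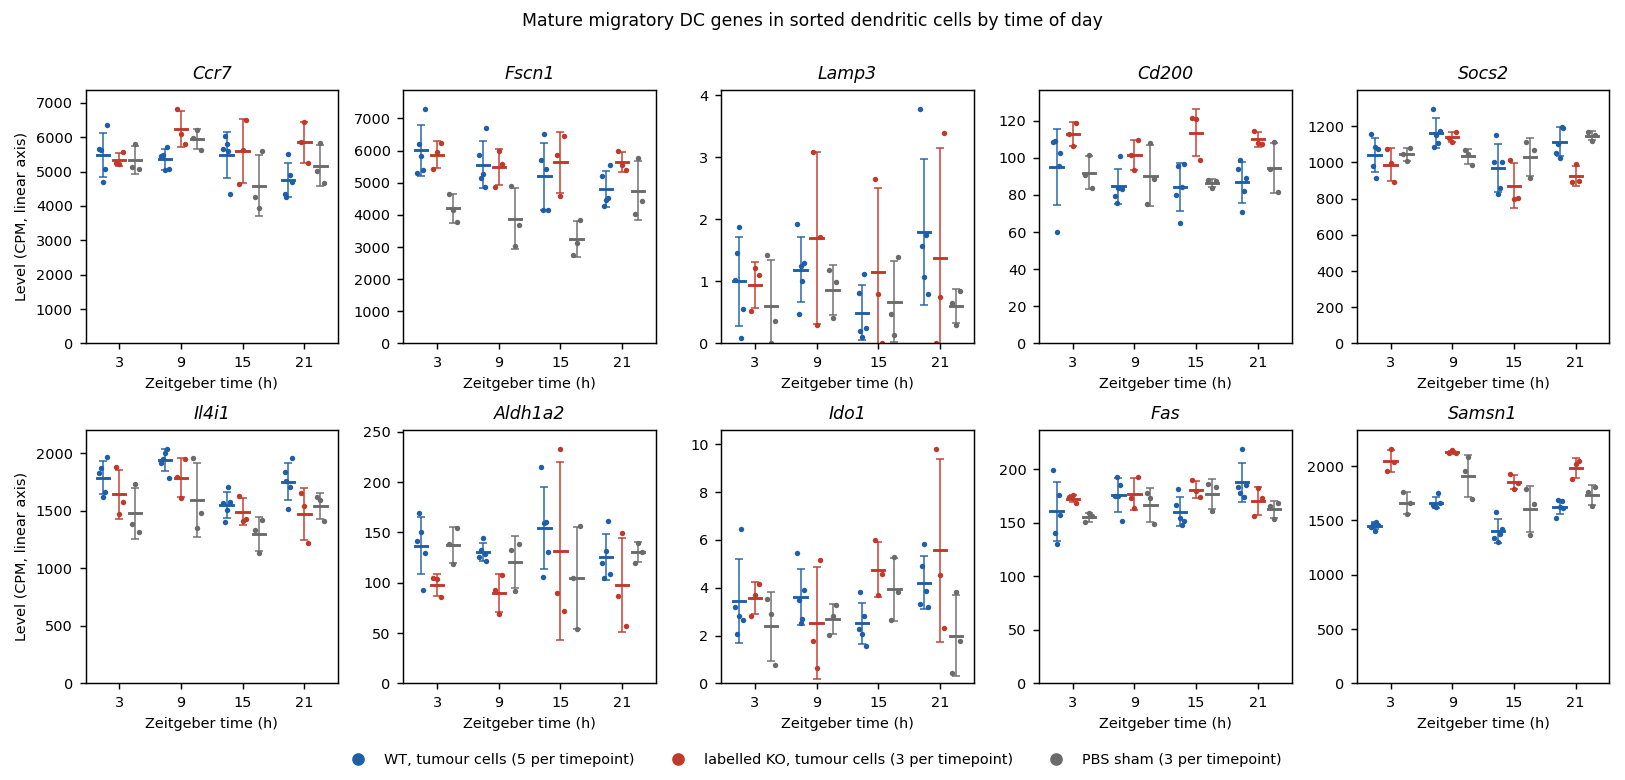
Level of each member (CPM, linear axis from 0) against zeitgeber time, with points for single libraries and bars for the mean ± SD of WT (blue, 5 per timepoint), labelled KO (red, 3) and PBS (grey, 3) libraries. Samsn1 ran from 1792 to 2159 CPM in libraries labelled KO and from 1300 to 1751 CPM in WT libraries, and Fscn1 was lowest in PBS libraries at ZT15.

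The first comparison asked whether the members varied with the time of injection in WT mice. No member passed the test, and timepoints next to each other in the order of their means overlapped for all members but Samsn1. Across the 4 timepoints limma called 0 of 10 members and 5.28% of all genes at an adjusted p under 0.05, and 3 of 10 members and 23.1% of all genes at an unadjusted p under 0.05. A cosinor with a 24-h period called 0 members and 0.0251% of all genes (0 members and 9.2% unadjusted), and the contrast of ZT9 with ZT21 called 0 members and 0.226% of all genes (0 members and 11.5% unadjusted).

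Samsn1 came closest. In WT libraries it stood at 1438, 1468, 1403, 1490 and 1461 CPM at ZT3, at 1646, 1635, 1627, 1751 and 1662 CPM at ZT9, at 1343, 1580, 1300, 1372 and 1421 CPM at ZT15 and at 1523, 1690, 1628, 1676 and 1616 CPM at ZT21. All libraries of ZT9 and ZT21 were above all of ZT3, and ZT9 was also above ZT15, whereas 1 library of ZT15 (replicate 2) reached into the range of ZT21. The means were 1664 ± 50.3 CPM at ZT9 and 1403 ± 108 CPM at ZT15 (SD, n = 5 each), a range of 18.6% of the lowest mean. The differences among timepoints had an unadjusted p of 0.00624 and an adjusted p of 0.0746 (limma), and over the other settings tried the adjusted p ran from 0.00755 to 0.635, with 4 of them under 0.05. With 1 library left out it ran from 0.0305 (without WT ZT15 replicate 2) to 0.149 (without WT ZT15 replicate 1), and was under 0.05 in the former case alone. The 2 high timepoints lie 12 h apart, a pattern that a cosinor of 24 h does not follow, and its adjusted p was 0.936 with an amplitude of 0.03 on the log2 scale.

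Il4i1 and Lamp3 were the other members with an unadjusted p under 0.05 among WT timepoints. Il4i1 stood at 1917, 1953, 2002, 2038 and 1787 CPM at ZT9 and at 1563, 1400, 1507, 1703 and 1576 CPM at ZT15. These timepoints did not overlap, and the means of 1939 ± 96.7 and 1550 ± 110 CPM (SD, n = 5) differed by 25.1% of the lower one (adjusted p = 0.113 over the 4 timepoints). Lamp3 stood at 3.78, 1.57, 1.07, 1.74 and 0.799 CPM at ZT21 and at 0.816, 0.197, 0.106, 1.13 and 0.250 CPM at ZT15 (adjusted p = 0.201), and these ranges overlapped. For the members with a higher p, the means overlapped in range, for Ccr7 from 4748 ± 501 CPM (ZT21) to 5485 ± 664 CPM (ZT15), for Socs2 from 968 ± 131 CPM (ZT15) to 1162 ± 81.6 CPM (ZT9), for Cd200 from 84.3 ± 12.9 CPM (ZT15) to 95.1 ± 20.4 CPM (ZT3) and for Fas from 160 ± 13.6 CPM (ZT15) to 188 ± 18.0 CPM (ZT21; SD, n = 5). For ZT9 against ZT21 the 95% confidence interval of the log2 difference was -0.05 to 0.40 for Ccr7, -0.08 to 0.50 for Fscn1 and -0.30 to 0.44 for Aldh1a2. ZT15 had the lowest mean of the 4 timepoints in WT for Lamp3, Cd200, Socs2, Il4i1, Ido1, Fas and Samsn1. In the same libraries, the summed markers of several cell types were highest in median at ZT15 and lowest at ZT9, with 211 and 117 CPM for macrophages and monocytes, 15.9 and 5.48 CPM for NK cells, 799 and 617 CPM for T cells, 305 and 231 CPM for cDC2 and 23263 and 16179 CPM for DC markers. Markers of cDC1 had the opposite sense, as Samsn1 and Il4i1 did, with 747 CPM at ZT15 and 923 CPM at ZT9. The cDC1 sum (WT median 833 CPM) consisted mostly of Irf8 (579 CPM) and Batf3 (173 CPM), with Xcr1 at 6.07 CPM and Clec9a at 1.80 CPM. Cd74 (10630 CPM) was the largest part of the DC sum. The part of these cells in the values was not tested.

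The same question was asked in the libraries labelled KO and in PBS libraries, each with 3 mice per timepoint. Among timepoints limma called 0 members in either group, as it called 0% of all genes in both (unadjusted, 0 members in both, 10.3% of all genes in labelled KO and 7.44% in PBS). The cosinor called 0 members and 0% of all genes in both groups (unadjusted, 0 members, 10.5% and 7.38% of all genes). ZT9 against ZT21 called 0 members in both groups, and 0.00836% of all genes in labelled KO and 0% in PBS (unadjusted, 0 members, 10.9% and 5.32% of all genes). Socs2 had the smallest p among timepoints in labelled KO (adjusted p = 0.569), with 1137, 1110 and 1165 CPM at ZT9, above all 9 libraries of the other timepoints, which ran from 796 to 1076 CPM. Samsn1 was again highest at ZT9 and lowest at ZT15 in both groups, with 2117, 2145 and 2123 CPM against 1925, 1792 and 1846 CPM in labelled KO and 1952, 2081 and 1695 CPM against 1790, 1370 and 1654 CPM in PBS. The ranges at ZT9 and ZT15 did not overlap in labelled KO and overlapped in PBS libraries.

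The time course was then compared between groups. The interaction of genotype and time called 0 of 10 members and 0.0502% of all genes (unadjusted, 0 members and 18.3%), and that of treatment and time 0 members and 0% of all genes (unadjusted, 1 member and 11.9%). The 1 member was Ido1 (unadjusted p = 0.0400, adjusted p = 0.393). In WT its mean was lowest at ZT15, with 2.29, 3.83, 2.07, 2.83 and 1.57 CPM, and highest at ZT21, with 3.31, 4.91, 5.82, 3.84 and 3.20 CPM. In PBS libraries the order of these timepoints was the opposite, with 2.67, 5.28 and 3.84 CPM at ZT15 and 0.432, 3.81 and 1.76 CPM at ZT21, and the ranges overlapped. Samsn1 had an adjusted p of 0.528 for genotype by time and of 0.935 for treatment by time.

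The second question was whether the level over all timepoints differed in the libraries labelled KO. Samsn1 and Cd200 were higher and Aldh1a2 was lower, so that 3 of 10 members were called against 33.7% of all genes. The count was 5 with median-of-ratios scaling (29.3% of all genes), with array weights (39.1%) and with an intensity trend (34.5%), and 6 without ZT15 replicate 1 labelled KO (30.9%), where Ccr7, Socs2 and Il4i1 were also called. The median log2 difference was 0.06 over the members and 0.10 over all genes tested. With median-of-ratios scaling the members' median was -0.02.

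Samsn1 was higher in labelled KO at each timepoint. Its 12 libraries labelled KO, from 1792 to 2159 CPM with a median of 2029 CPM, were all above the 20 WT libraries, which ran from 1300 to 1751 CPM with a median of 1551 CPM. The log2 difference was 0.39 (SE 0.04, adjusted p = 1.84e-08), or a ratio of means of 1.30, and at single timepoints, where no test was run, it was 0.50 at ZT3, 0.36 at ZT9, 0.40 at ZT15 and 0.28 at ZT21, with no overlap between groups at any of them. Over the 10 settings tried the difference ran from 0.29 to 0.40 and the adjusted p from 3.37e-10 to 2.11e-05.

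Cd200 ran from 93.3 to 121 CPM (median 109 CPM) in labelled KO and from 60.0 to 109 CPM (median 86.5 CPM) in WT libraries. The groups overlapped, and 6 of 12 libraries labelled KO were above every WT library. The log2 difference was 0.33 (SE 0.08, adjusted p = 0.00219), and it was positive at each timepoint, from 0.27 at ZT9 to 0.44 at ZT15. Aldh1a2 ran from 57.3 to 233 CPM (median 91.2 CPM) in labelled KO and from 92.9 to 215 CPM (median 131 CPM) in WT libraries. Of the 12 libraries labelled KO, 7 were below every WT library, and 1, the ZT15 replicate 2 that held the macrophage and melanoma markers, was above every WT library. The log2 difference was -0.46 (SE 0.15, adjusted p = 0.0166), and it was -0.59 without that library. The values at ZT9 were 92.8, 69.3 and 107 CPM in labelled KO and 126, 132, 145, 129 and 121 CPM in WT, the single timepoint at which the groups did not overlap.

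The other members did not pass the test. Il4i1 (log2 difference -0.14, 95% confidence interval -0.26 to -0.03, adjusted p = 0.0523) and Socs2 (-0.13, -0.25 to -0.01, adjusted p = 0.0774) were lower in mean, and Ccr7 (0.13, 0.0020 to 0.26, adjusted p = 0.110) was higher. These 3 depended on the settings: the adjusted p of Il4i1 ran from 0.00398 to 0.160, that of Socs2 from 0.0140 to 0.109 and that of Ccr7 from 0.0493 to 0.713. Intervals of the log2 difference were -0.07 to 0.23 for Fscn1, -0.08 to 0.16 for Fas, -0.30 to 0.52 for Ido1 and -0.59 to 0.63 for Lamp3. Nup62, which shares exons with Il4i1 in GENCODE but not in RefSeq, was higher in labelled KO (0.26, SE 0.08, adjusted p = 0.0154).

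Depth was higher in labelled KO than in all WT libraries and cannot be told apart from genotype. Marker lists of several other cells were also higher: Langerhans cell markers summed to 116 to 219 CPM in labelled KO and 84.7 to 147 CPM in WT (5 of 5 markers with a higher median), macrophage and monocyte markers to 144 to 1042 CPM and 83.8 to 280 CPM (9 of 10), and NK cell markers to 11.4 to 68.1 CPM and 4.10 to 18.5 CPM (6 of 6). Plasmacytoid DC markers were higher in median for 5 of 6 and B cell markers for 7 of 8, and markers of the cDC2 subset of DCs for 8 of 8 (summed median 325 CPM against 268 CPM in WT). Markers of cDC1 (4 of 8) and T cells (8 of 15) were divided, and those of lymph node stroma were higher for 0 of 5. The part of these cells in the differences of Samsn1, Cd200 and Aldh1a2 was not tested.

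**Figure D2:**
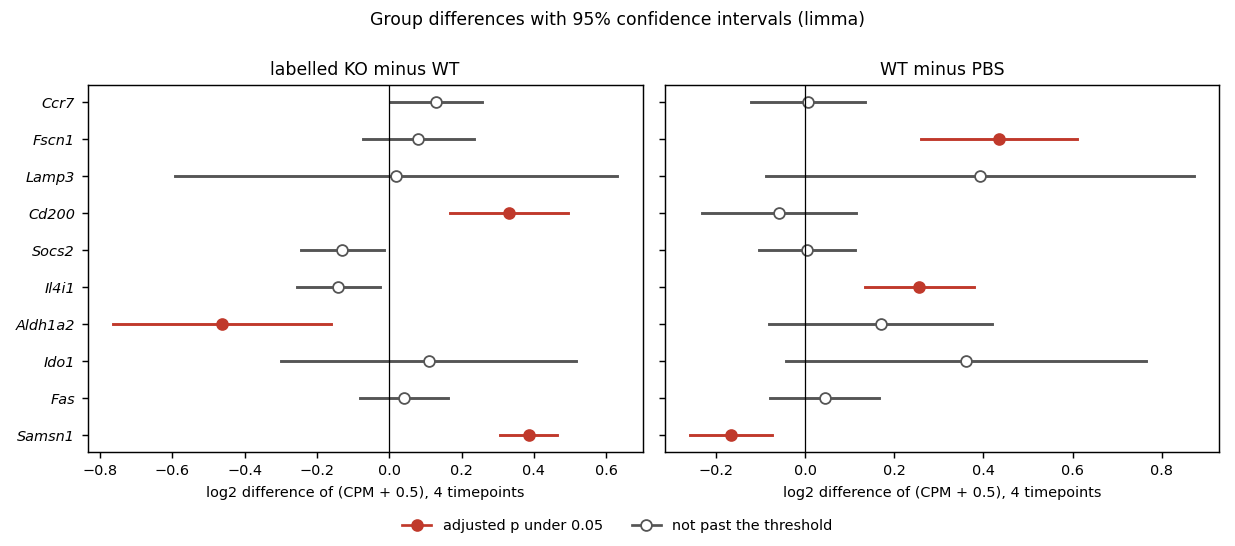
Log2 difference of (CPM + 0.5) with its 95% confidence interval for each member, labelled KO minus WT (left) and WT minus PBS (right), over the 4 timepoints; filled red points passed an adjusted p under 0.05. Samsn1, Cd200 and Aldh1a2 passed on the left, and Fscn1, Il4i1 and Samsn1 on the right.

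The third question was what the injection of tumour cells changed against the sham injection. Fscn1 and Il4i1 were higher and Samsn1 was lower in WT than in PBS libraries, so that 3 of 10 members were called against 37.9% of all genes. The median log2 difference was 0.11 over the members and -0.04 over all genes tested. This comparison shares its WT libraries with the one above, so that the opposite signs of Samsn1 in the 2 are not independent of each other.

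Fscn1 ran from 4151 to 7294 CPM (median 5352 CPM) in WT and from 2767 to 5774 CPM (median 3936 CPM) in PBS libraries. The log2 difference was 0.44 (SE 0.09, adjusted p = 1.93e-04), a ratio of means of 1.34. At ZT3 all 5 WT libraries (5305, 6195, 5832, 5399 and 7294 CPM) were above the 3 PBS libraries (4663, 4150 and 3784 CPM), and at ZT15 the WT libraries (5716, 4151, 6516, 5432 and 4154 CPM) were above 2767, 3134 and 3850 CPM. At ZT21 the groups overlapped, with 5207, 4272, 4459, 4515 and 5556 CPM against 4021, 5774 and 4438 CPM. The difference was thus 0.51 at ZT3, 0.54 at ZT9, 0.67 at ZT15 and 0.03 at ZT21, but it was not shown to vary with time (treatment by time, adjusted p = 0.454). In the libraries labelled KO, which also received tumour cells, Fscn1 ran from 4586 to 6460 CPM. The other 2 called members did not follow WT there. Il4i1 ran from 1222 to 1953 CPM in labelled KO, against 1133 to 1956 CPM in PBS libraries. Samsn1, lower in WT than in PBS libraries, ran from 1792 to 2159 CPM in labelled KO, against 1370 to 2081 CPM in PBS libraries.

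Il4i1 ran from 1400 to 2038 CPM in WT and from 1133 to 1956 CPM in PBS libraries, and 4 of 20 WT libraries were above every PBS library. The log2 difference was 0.26 (SE 0.06, adjusted p = 0.00110), with values from 0.18 at ZT21 to 0.30 at ZT9. Nup62 did not pass the test (-0.01, SE 0.07, adjusted p = 0.908). Samsn1 was lower in WT than in PBS libraries, which ran from 1370 to 2081 CPM with a median of 1727 CPM, by a log2 difference of -0.17 (SE 0.05, adjusted p = 0.00461). It was below all PBS libraries of the same timepoint in 5 of 5 WT libraries at ZT3 and 4 of 5 at ZT9. The ranges overlapped at ZT15, with 1300 to 1580 CPM in WT and 1370 to 1790 CPM in PBS libraries. They also overlapped at ZT21, with 1523 to 1690 CPM and 1630 to 1804 CPM. With median-of-ratios scaling the difference was -0.12 and the adjusted p 0.0861.

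Ccr7 did not pass the test, and its interval was narrow, with a log2 difference of 0.01 (95% confidence interval -0.12 to 0.13). The same held for Socs2 (0.0043, -0.10 to 0.11), Fas (0.04, -0.08 to 0.17) and Cd200 (-0.06, -0.23 to 0.11). The intervals were wide for Aldh1a2 (0.17, -0.08 to 0.42), Ido1 (0.36, -0.04 to 0.77) and Lamp3 (0.39, -0.09 to 0.87), the members with few reads or a large spread. PBS libraries were deeper than WT libraries in median and higher in markers of other cells: macrophage and monocyte markers summed to 309 to 525 CPM (10 of 10 with a higher median), plasmacytoid DC markers to 131 to 231 CPM against 62.5 to 89.2 CPM in WT (6 of 6), NK cell markers to 38.0 to 336 CPM (6 of 6) and B cell markers to 73.6 to 125 CPM against 41.4 to 68.8 CPM in WT (6 of 8). T cell markers were higher in median for 12 of 15 (summed median 924 CPM against 755 CPM in WT), cDC1 markers for 7 of 8 (1139 CPM against 833 CPM) and cDC2 markers for 6 of 8 (358 CPM against 268 CPM), while those of Langerhans cells (3 of 5) and lymph node stroma (2 of 5) were divided. Among their defining genes Mertk was at 0 in 13 of 44 libraries, Klra8 in 19 and Pax5, of B cells, in 23. Every PBS library except ZT9 replicate 1 (28003328 reads) was deeper than all WT libraries, which had at most 28962671 reads. Depth can therefore hardly be told apart from treatment. The part of depth and of other cells in the differences from PBS was not tested.

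**Figure D3:**
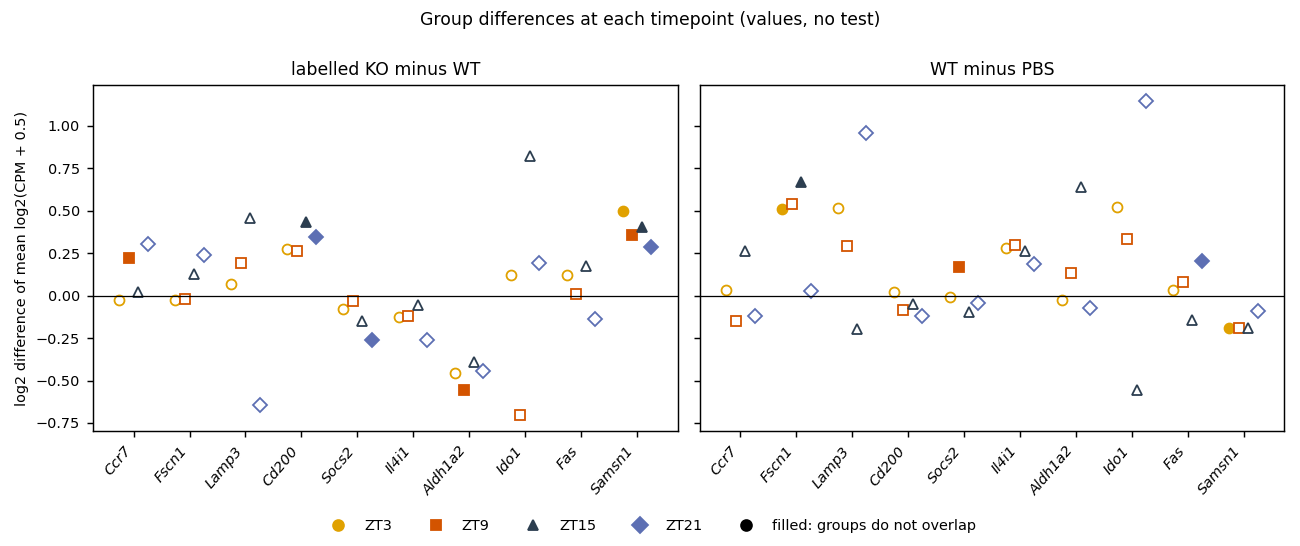
Log2 difference of the group means at each timepoint for each member, labelled KO minus WT (left) and WT minus PBS (right), given as values with no test; filled symbols mark timepoints at which the groups did not overlap. Samsn1 was filled at all 4 timepoints on the left, from 0.28 to 0.50, and Fscn1 at ZT3 and ZT15 on the right.

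Another 51 genes known in mature migratory DCs, with relatives of Socs2 among the targets of STAT5, were all tested. In labelled KO against WT 20 were called (39.2% of the list, 9 higher and 11 lower) against 33.7% of all genes, and the median was -0.08 against 0.10 over all genes. With median-of-ratios scaling 27 were called (52.9% of the list, 8 higher and 19 lower) against 29.3% of all genes. All 51 had a mean of at least 10 CPM. Among genes with such a mean, 21 of the 51 were called (41.2%) against 41.4% of all genes, so that the list did not stand out. The smallest p belonged to Socs1, Cish and Adcy6. Socs1 and Cish, which inhibit cytokine receptors as Socs2 does, were higher by 0.63 (SE 0.07, adjusted p = 5.75e-08) and 0.91 (SE 0.11, adjusted p = 2.92e-07) on the log2 scale, and Adcy6, an adenylyl cyclase, was lower, by -0.63 (SE 0.09, adjusted p = 7.50e-06). Socs2 was lower in mean in this comparison and not called.

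In WT against PBS 30 of the 51 were called (58.8% of the list, 24 higher and 6 lower) against 37.9% of all genes, with a median of 0.14 against -0.04. Among genes with a mean of at least 10 CPM, 31 of the 51 were called (60.8%) against 42.3% of all genes. Cish differed most clearly (-1.54, SE 0.11, adjusted p = 1.72e-11), with 5.41 to 19.0 CPM in WT and 22.9 to 57.6 CPM in PBS libraries. Spred1, an inhibitor of Ras signalling, was higher in WT (1.39, SE 0.13, adjusted p = 1.61e-09), as was Nudt17 (0.36, SE 0.04, adjusted p = 1.91e-07). The depth and the marker sums given above move with both comparisons.

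**Figure D4:**
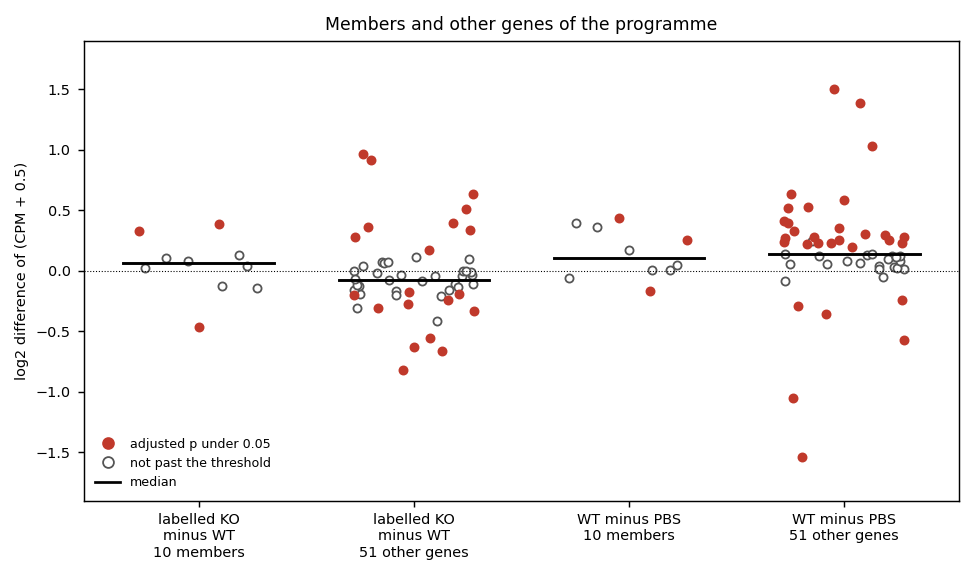
Log2 difference of (CPM + 0.5) for the 10 members and the 51 other genes of the programme in both comparisons; each point is a gene, red where the adjusted p was under 0.05, and the bar is the median. Medians were 0.06 and -0.08 for labelled KO minus WT and 0.11 and 0.14 for WT minus PBS, and Cish lies lowest on the right at -1.54.

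By time of day 8 of the 51 were called among WT timepoints, 15.7% of the list against 5.28% of all genes. This count rested on single libraries: it was 15 without WT ZT3 replicate 3 (11% of all genes) and 2 without WT ZT15 replicate 1 (2.32%), 3 (3.06%), 4 (2.67%) or 5 (2.76%), and it was from 3 to 5 without ZT3 replicate 2 or any 1 library of ZT9 or ZT21 (3.03% to 4.91%). It was 13 with genes of a mean of at least 10 CPM (11.2%), 13 with an intensity trend (7.82%), 14 in 1 fit over all libraries (6.61%), 23 with array weights (20.6%) and 3 with a replicate block (2.85%). Socs3 (adjusted p = 0.0102), Zmynd15 (adjusted p = 0.0162) and Slco5a1 (adjusted p = 0.0248) had the smallest p, and with 1 library left out their adjusted p ran up to 0.0293, 0.0430 and 0.0652. That of Zmynd15 was 0.0585 with median-of-ratios scaling. Socs3, another inhibitor of cytokine signalling, was high at ZT15 (50.4 ± 12.6 CPM) and ZT3 (40.1 ± 12.97 CPM) and low at ZT9 (21.5 ± 8.94 CPM) and ZT21 (17.5 ± 6.71 CPM; SD, n = 5). Zmynd15 was high where Socs3 was low, with 970 ± 87.4 CPM at ZT9, 868 ± 59.9 CPM at ZT21, 730 ± 101 CPM at ZT3 and 633 ± 106 CPM at ZT15, and Slco5a1 ran from 229 ± 18.6 CPM at ZT15 to 379 ± 54.7 CPM at ZT9. Samsn1 had the same order of means as Zmynd15. Summed macrophage and monocyte markers had WT medians of 211 CPM at ZT15, 172 at ZT3, 134 at ZT21 and 117 at ZT9. In the same order, NK cell markers had 15.9, 10.7, 5.83 and 5.48 CPM, and cDC1 markers 747, 832, 853 and 923 CPM. The part of these cells in the time courses of the 51 genes was not tested. In the 10 other comparisons that involve time, limma called 0 of the 51, and from 0 to 12 had an unadjusted p under 0.05, where the share of all genes ran from 5.32% to 18.3%. Their smallest p belonged to Cd80, Stat4 and Clu for the WT cosinor, Stat4, Spred1 and Ly75 for ZT9 against ZT21 in WT, Cish, Spred1 and H2-M2 among timepoints labelled KO, Cish, Cd40 and Eno3 for the cosinor labelled KO, and Ccl5, Cish and Ccl22 for ZT9 against ZT21 labelled KO. In PBS libraries they were Cd80, Stat4 and Bmp2k among timepoints, Cd80, Bmp2k and Birc3 for the cosinor, and Cd80, Cish and Pdcd1lg2 for ZT9 against ZT21. For genotype by time they were Spred1 (adjusted p = 0.0667), Cish and Marcks, and for treatment by time Pdcd1lg2 (adjusted p = 0.141), Socs3 and Stat4.

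The genes whose pattern was most like that of the members were sought over the 44 libraries, as the correlation of each other gene with the mean of the members' standardized log2 levels. The 5 highest were Tpm1, a tropomyosin that binds actin (Pearson's r = 0.754, Spearman's rho = 0.716), Nmrk1, a kinase of nicotinamide riboside (0.752, 0.719), Gpr137b (0.747, 0.685), Zfp809 (0.744, 0.602) and Lmbr1l (0.744, 0.709). Within a group and timepoint r was 0.615, 0.595, 0.704, 0.639 and 0.486. The members themselves, each of which is part of the mean, correlated with it from 0.155 (Aldh1a2) to 0.650 (Il4i1). These values are descriptions over libraries that share depth and group.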

How the data were processed

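RNA-seq was measured in 44 libraries, made with SMART-Seq v4 and Nextera XT kits and sequenced as single reads of 50 bases. Per the labels and methods, the authors used STAR for alignment to mm10 and HTSeq 0.9.1 for counting on genes; the deposited table holds linear CPM, scaled by library size, for 14699 genes. Between 88.2% and 90.8% of low values per library are whole reads within 0.02, too few for a test on counts, so the count model of the methods was replaced by limma 3.58.1 (R 4.3.3) on log2(CPM + 0.5), over the 11963 genes that reached 1 CPM in 5 or more libraries, with Benjamini–Hochberg adjustment over them. Each of 13 comparisons used only the libraries it concerns: timepoints, a 24-h cosinor and ZT9 against ZT21 in each group, group differences over the timepoints, and interactions with time. The fits were tested on simulated data. Replicates are mice; the labels do not say which of the study's experiments a mouse belongs to. Python 3.11.15, numpy 2.4.6, pandas 2.3.3, scipy 1.17.1 and matplotlib 3.10.9 were used.

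The members and the lists of other genes and of markers were chosen with earlier results of these data known. Named were all members, the 3 of the 51 other genes with the smallest p per comparison, the 5 genes most like the members, and Arntl; further genes (Nup62, single markers) were named after their values were seen. Alternatives were another pseudocount, scaling, filter, fit over all libraries, array weights, intensity trend, replicate block and leaving out each library.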

Additional observations from a re-analysis of the deposited data

Results flagged for a closer look

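In the WT groups of 5 libraries, 40 sets of values (10 members at 4 timepoints) were examined for a library that lies far from the others, and 5 were found; chance alone gives about 1 in 20. The gap to the nearest library is given as a share of the range. Ccr7 at ZT15 was low in replicate 5 (4338 CPM against 5600 to 6036 CPM, share 0.743). Cd200 at ZT3 was low in replicate 3 (60.0 CPM against 95.4 to 109 CPM, share 0.725). Ido1 at ZT3 was high in replicate 4 (6.47 CPM against 2.07 to 3.21 CPM, share 0.739). Fas at ZT21 was high in replicate 3 (219 CPM against 174 to 185 CPM, share 0.744). Samsn1 at ZT9 was high in replicate 4 (1751 CPM against 1627 to 1662 CPM, share 0.718). No member differed in its time course between groups by the interaction tests.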

How the results depend on the processing

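The count of members called among WT timepoints was 0, and it was 1 with genes of a mean of at least 10 CPM (11.2% of all genes called), 1 in 1 fit over all libraries (6.61%), 1 with an intensity trend (7.82%; Samsn1 in each) and 2 with array weights (Samsn1 and Il4i1; 20.6%). The count for labelled KO minus WT was 3, and it was 5 with median-of-ratios scaling (29.3% of all genes), 5 with array weights (39.1%) and 5 with an intensity trend (34.5%). For WT minus PBS it stayed within 1.5 times the reported count in all settings. Leaving out 1 library gave 0 to 1 among WT timepoints (1 without WT ZT15 replicate 2, 7.72% of all genes), 3 to 6 for labelled KO minus WT (6 without KO ZT15 replicate 1, 30.9%) and 3 to 4 for WT minus PBS. The other 10 counts were 0 in every setting and with each library left out. Leaving out 1 library moved the difference of Aldh1a2 between labelled KO and WT from -0.59 to -0.38, with an adjusted p of up to 0.0444 (without KO ZT15 replicate 3). None of the member differences followed across settings turned direction. Why these counts moved was not tested.

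Median-of-ratios scaling moved the median difference of all genes by -0.09 for labelled KO minus WT, and the share of called genes that were higher went from 69.8% to 49.9%; for WT minus PBS the shift was 0.05 and the share went from 35.1% to 46.2%. With a replicate block the counts of members were 0 among timepoints, 3 for labelled KO minus WT and 3 for WT minus PBS, as without it. The share of all genes called fell with the block, from 5.28% to 2.85% among WT timepoints and from 33.7% to 27.4% for labelled KO minus WT. For WT minus PBS the genes called went from 4529 to 3681 of 11963. Deviations of libraries with the same number correlated from -0.24 to 0.19. Such values cannot settle whether the numbers mark a shared experiment, and the labels do not say. Depth limits Lamp3 and Ido1, whose values rest on few reads.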
